A study of Mus musculus with 24 samples.

Results

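Zone 1 is the most pericentral of 8 hepatocyte fractions sorted from each mouse, and its 3 arrays were compared with the 9 arrays of its nearest neighbours, zones 2, 3 and 4, from the same 3 mice. The zone and the mouse were read from the sample titles, so 12 of the 24 arrays of the series entered the comparison. Arrays with Agilent mouse miRNA probes were hybridised with Cy3-labelled total RNA, 1 colour per array. All mice were C57BL/6J males aged 3 months, without treatment, fed freely under a reversed light cycle. Dissociated liver cells were depleted of dead, CD45+ and CD31+ cells, limited to tetraploid hepatocytes and sorted on CD73 and E-cadherin, 50000 cells per fraction. Zone 1 had the highest CD73, and zone 8 the highest E-cadherin. The fractions of 1 mouse share an isolation and a slide, and the zones are ranks of 2 surface proteins, not measured distances. On every slide column 1 of row 1 held zone 1, and its neighbours filled the rest of that row, so zone 1 and that slide column cannot be told apart.

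In the liver lobule, blood flows from the portal tract to the central vein, and hepatocytes along that path carry out different tasks. Pericentral hepatocytes, next to the vein, receive Wnt signals and are known for glutamine synthesis, bile acid synthesis and drug metabolism. A miRNA is a short RNA that guides Argonaute to mRNAs, chiefly through its seed, bases 2 to 8 from the 5′ end. The comparison asks whether the cells nearest the vein differ in miRNA content from the next layers out, rather than along the whole axis.

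The miRNAs with the smallest p in each direction and the same sign in every mouse are shown first, because the comparison turns on them. Sequences are from RefSeq (GRCm38.p6), 5′ to 3′, with the seed in capitals. A mature sequence was matched for 286 of the 339 miRNAs tested, and miR-1949 and miR-1839-3p are given by name. Those with higher values in zone 1 were the following.
miR-24-3p: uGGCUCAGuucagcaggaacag
miR-6997-5p: uAACAGGCuggagaggugcaga
miR-1198-5p: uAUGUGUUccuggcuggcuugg
miR-551b-5p: gAAAUCAAgcuugggugagaccu
miR-5100: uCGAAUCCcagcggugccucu
miR-376b-3p: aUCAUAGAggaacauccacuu
Those with lower values in zone 1 were the following.
miR-3473c: uCUCUCCAgcccccauaauaag
miR-21a-3p: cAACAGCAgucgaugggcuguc
miR-706: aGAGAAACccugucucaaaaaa
miR-7653-3p: cCCCUACUguuccaccccgccu
None of these seeds was shared with another tested miRNA that had a sequence. miR-24-3p comes from 2 copies, Mir24-2 at chr8:84208875-84208896 and Mir24-1 at chr13:63301251-63301272, both on the plus strand, and the array does not tell them apart. miR-3473c lies at chr1:191998602-191998623 and miR-21a-3p at chr11:86584082-86584103, both on the minus strand. miR-376b-3p lies at chr12:109723508-109723528 on the plus strand, inside the imprinted Dlk1-Dio3 region.

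The arrays of zones 1 to 4 had 248 to 313 of 1881 miRNAs detected, and their summed signals ran from 65807 to 137113. Detection is the scanner software's call, and the scaled signal is the intensity after each array was brought to a common 75th percentile, on a linear scale without a unit. Differences are given in log2 units, with undetected values set to a floor of 1.12. Zone 1 had 282 ± 25.9 detected miRNAs (SD, n = 3) and zones 2-4 had 293 ± 20.3 (n = 9), a difference of -10.8 (exact permutation within mice, two-sided p = 0.5, or 0.75 adjusted over 3 measures). Without mouse 2 that difference was 9.67. The log2 summed signal differed by -0.02 (exact permutation p = 0.875). The smallest p that these 64 arrangements can give is 0.0156. The 3 zone 1 arrays did not deviate alike. That of mouse 1 had 16 miRNAs that zones 2, 3 and 4 of the same mouse all lacked, and lacked 1 that they all had. That of mouse 2 had none of the first kind and lacked 29 that its 3 neighbours all had, with 253 detected. That of mouse 3 gained 6 and lacked 9. Counted in the same way, the 9 arrays of zones 2-4 gained 0 to 19 and lacked 0 to 19. The gains of the zone 1 arrays lay within that range, and the 29 lacked in mouse 2 lay outside it. From zone 1 to zone 4 the summed signals were 94368, 65807, 69989 and 70723 in mouse 1. They were 70242, 91073, 99274 and 66473 in mouse 2, and 101278, 137113, 116308 and 113234 in mouse 3. The part of array brightness in these detection counts was not tested.

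No miRNA passed an adjusted p of 0.05 in zone 1 against zones 2-4 (limma with the mouse as a block, Benjamini-Hochberg). Of 339 tested miRNAs 0 were called higher and 0 lower, or 0% in each direction, and the lowest adjusted p was 0.148. At an unadjusted p under 0.05 there were 8 higher (2.36%) and 11 lower (3.24%), together 5.6%. Differences ran from -1.07 to 1.42 log2 units with a median of 0.01, and 177 of 339 lay above 0. The absence of calls does not show equal levels, but the 95% intervals set limits to the differences under this fit. They rest on the spread among all 12 arrays after the mouse is taken out, not on the 3 mouse differences alone. Where the mice differ in zone 1 they can be too narrow. With 1 difference per mouse 0 were called, and the lowest adjusted p was 0.953 (limma). The median interval reached 0.44 log2 units to each side of its estimate. For 248 of 339 miRNAs, and for 206 of the 213 detected on all 12 arrays, the whole interval lay between -1 and 1. Among those 213 the differences ran from -0.80 (miR-1949) to 0.44 (miR-6997-5p).

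**Figure D1:**
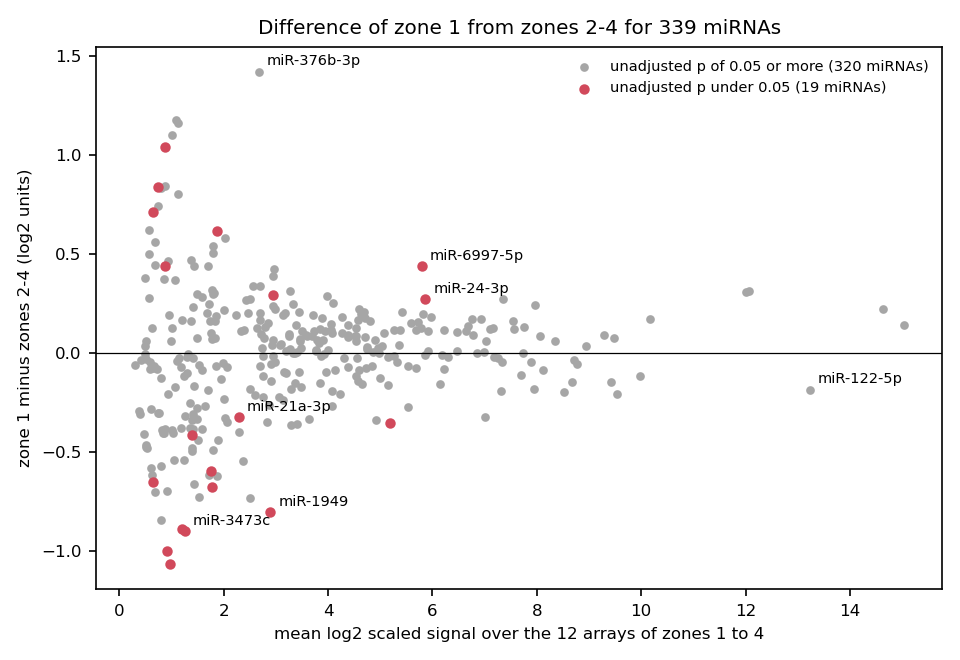
Difference of zone 1 from zones 2-4 in log2 units (vertical axis) against the mean log2 scaled signal over 12 arrays (horizontal axis) for 339 miRNAs. The 19 points with an unadjusted p under 0.05 are red, and none passed the adjusted threshold. The widest differences lie at low signal.

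The 3 mice gave unlike pictures of zone 1. Across the 339 miRNAs the differences measured in mice 1 and 2 had a Pearson correlation of -0.04, those in mice 1 and 3 of 0.00, and those in mice 2 and 3 of 0.17, given as descriptions across miRNAs of the same libraries. The same sign in all 3 mice was seen for 57 miRNAs (16.8%), 35 above 0 (10.3%) and 22 below (6.49%). Zone 1 lay above each of zones 2, 3 and 4 of its own mouse, in all 3 mice, for 7 miRNAs (2.06%). These were miR-24-3p, miR-1198-5p, miR-551b-5p, miR-5100, miR-3968, miR-6360 and miR-202-3p. It lay below them in all 3 mice for 4 (1.18%), namely miR-3473c, miR-1949, miR-1839-3p and miR-21a-3p. When arrays of all mice were pooled, miR-24-3p alone of the 339 had all 3 zone 1 arrays above all 9 others (0.295%), and none had all 3 below.

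miR-1949 was lower in zone 1 by a similar amount in each mouse. In zone 1 its scaled signal was 5.30 in mouse 1, 6.05 in mouse 2 and 3.61 in mouse 3, or 4.99 ± 1.25 (SD, n = 3). In zones 2-4 it was 8.82 ± 2.29 (n = 9), with a lowest array of 4.67, a median of 9.12 and a highest of 11.4. Zone 1 was the lowest of its 4 zones in each mouse, while the pooled groups overlapped through zone 2 of mouse 3.

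Zone means of miR-1949 were 6.69 in zone 2, 9.74 in zone 3 and 10.03 in zone 4, and then between 8.68 and 10.4 in zones 5 to 8. The difference of zone 1 from zones 2-4 was -0.80 ± 0.21 log2 units (SE, 95% interval -1.27 to -0.34, adjusted p = 0.501 with limma), a ratio of 0.573, and it was -0.71, -0.80 and -0.90 in mice 1, 2 and 3. The widest step between neighbouring zones of the 4 was from zone 2 to zone 3. Against zone 2 alone the difference was -0.40 ± 0.15 (adjusted p = 0.830, limma), and the slope over zones 2-4 was 0.31 ± 0.09 per zone (adjusted p = 0.225, limma). miR-1949 passed the threshold as lower when the 4 zones each had a term of their own (adjusted p = 0.0483), when all 24 arrays entered the fit (0.00756) and when zone 2 was left out (0.0116).

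miR-3473c was near the limit of detection. In zone 1 it was detected in mouse 1 alone, at a scaled signal of 2.64, and was not detected in mice 2 and 3. All 9 arrays of zones 2-4 detected it, between 2.02 and 3.57 with a median of 2.83. The groups overlap through mouse 1, whose zone 1 value lies within the range of the others.

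The fitted difference of miR-3473c was -0.90 ± 0.18 log2 units (95% interval -1.30 to -0.51, unadjusted p = 0.000436, adjusted p = 0.148, limma). It was -0.29 in mouse 1, -1.36 in mouse 2 and -1.06 in mouse 3, the last pair with undetected values at the floor. Without mouse 1 the adjusted p was 0.0308, without the zone 1 array of mouse 1 it was 0.00519, and with scaling over the miRNAs detected on these 12 arrays it was 0.0372 (limma). In zone 5, which lies in the same column of the second slide row, miR-3473c was not detected in mouse 1 and was at 3.14 and 3.29 in mice 2 and 3.

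**Figure D2:**
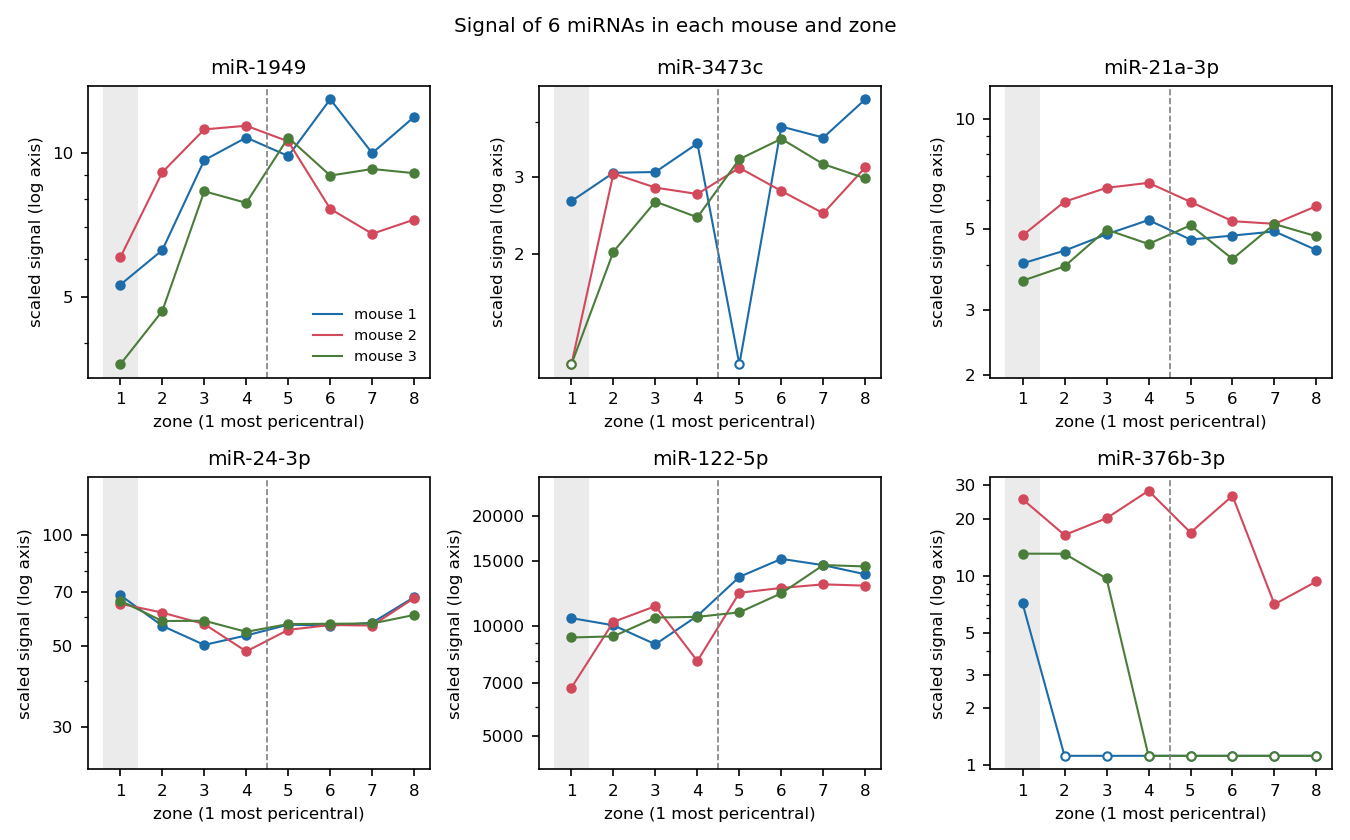
Scaled signal (log axis) of 6 miRNAs in zones 1 to 8 for each mouse. Filled points are detected, open points undetected and drawn at the floor of 1.12. Zone 1 is shaded and the dashed line separates the slide rows. miR-1949 is lowest in zone 1 of each mouse, miR-24-3p runs between 65.1 and 68.6 in zone 1 and at most 61.5 in zones 2-4, and miR-376b-3p differs mainly between mice.

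miR-24-3p had close values on the 3 zone 1 arrays. In zone 1 its signal was 68.6, 65.1 and 66.3 in mice 1, 2 and 3, a mean of 66.7 ± 1.82 (SD, n = 3). Zones 2-4 had 55.4 ± 4.24 (n = 9), from 48.2 to 61.5. The groups did not overlap, yet the fitted difference of 0.27 ± 0.11 log2 units (95% interval 0.03 to 0.51), a ratio of 1.21, had an adjusted p of 0.681 with limma.

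miR-24-3p is made from clusters that also hold miR-23 and miR-27, which act in lipid metabolism and vessels. Zone means of miR-24-3p declined from 58.8 in zone 2 to 52.0 in zone 4 and were 65.3 in zone 8, so values like those of zone 1 occurred at the periportal end too. Of 5 tested members of these clusters 4 lay above 0, with a median difference of 0.17 beside 0.01 for all tested, and 0 were called. By mouse that median was 0.38, -0.06 and 0.14 in mice 1, 2 and 3. miR-23a-3p was at 0.17 ± 0.14, miR-23b-3p at 0.17 ± 0.18 and miR-27b-3p at 0.12 ± 0.17 log2 units. Under the 4 other scalings the cluster median was smaller. It was 0.02 without scaling between arrays and 0.02 over the miRNAs detected on all 12 arrays. After scaling to the summed signal it was 0.04, and after quantile normalization 0.13. The median of all tested moved too, to -0.12, -0.12, -0.09 and 0.01 in that order, and the cluster median lay above it each time. The cluster median of mouse 2 ran from -0.32 to 0.04 and that of mouse 3 from -0.14 to 0.13. Those of all tested ran from -0.37 to 0.00 and from -0.17 to 0.05.

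Of the other miRNAs with higher values, miR-6997-5p had 50.1, 81.0 and 83.2 in zone 1 of mice 1, 2 and 3 and a range of 32.6 to 84.2 in zones 2-4. Mouse 3 was high in all 4 zones and added a difference of 0.03 log2 units, against 0.49 in mouse 1 and 0.80 in mouse 2. The fitted difference was 0.44 ± 0.14 (adjusted p = 0.681, limma), and the groups overlapped. miR-1198-5p was at 7.24, 11.5 and 8.67 in zone 1 and at 4.75 to 10.2 in zones 2-4, a difference of 0.29 ± 0.11. miR-5100, a bright probe, was at 4493, 5033 and 5775 in zone 1 and at 2837 to 5260 in zones 2-4. Its difference was 0.31 ± 0.15 log2 units, and the miR-5100 values again followed the mouse as well as the zone. miR-551b-5p was detected in mouse 1 in zone 1 alone, at 2.86, and on every array of mice 2 and 3, where its differences were 0.09 and 0.41.

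The strands of 1 precursor could be compared. miR-21a-5p is the guide strand of a widely expressed miRNA linked to growth and injury, and miR-21a-3p is its partner strand. miR-21a-3p was at 4.03, 4.81 and 3.62 in zone 1 of mice 1, 2 and 3 and at 3.96 to 6.69 in zones 2-4. Zone 1 was lowest within each mouse and differed from the mean of zones 2-4 by -0.26, -0.40 and -0.31 log2 units, while the pooled groups overlapped. The fitted difference of miR-21a-3p was -0.32 ± 0.11 (adjusted p = 0.681, limma). A control sequence of the array, hur_2, had differences of -0.23, -0.35 and -0.32 in mice 1, 2 and 3, of about that size. It was the lowest of 5 controls detected on all 12 arrays. The others had mean differences of 0.01 (hur_1), 0.02 (hur_4), -0.08 (hur_6) and -0.16 (mr_1). miR-21a-5p was at 962, 374 and 818 in zone 1 and at 514 to 1104 in zones 2-4, and its difference was -0.21 ± 0.14 with most of it in mouse 2 (-0.61).

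miR-1839-3p was at 34.7, 29.0 and 27.5 in zone 1 and at 30.3 to 48.8 in zones 2-4, a difference of -0.36 ± 0.12 log2 units. miR-706 was at 2.69, 2.21 and 1.58 in zone 1 and at 1.57 to 4.19 in zones 2-4, a difference of -0.41 ± 0.16. Both had overlapping groups and an adjusted p of 0.681 (limma). miR-7653-3p was the only miRNA detected on no zone 1 array and on at least 6 of the 9 others. It was detected on 6, at 2.26 to 5.33, and was undetected in zones 2 and 3 of mouse 1 and zone 4 of mouse 2 (adjusted p = 0.681, limma). No fold is given for miR-7653-3p, because both groups hold undetected arrays. No miRNA was detected on all 3 zone 1 arrays and on 4 or fewer of zones 2-4.

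**Figure D3:**
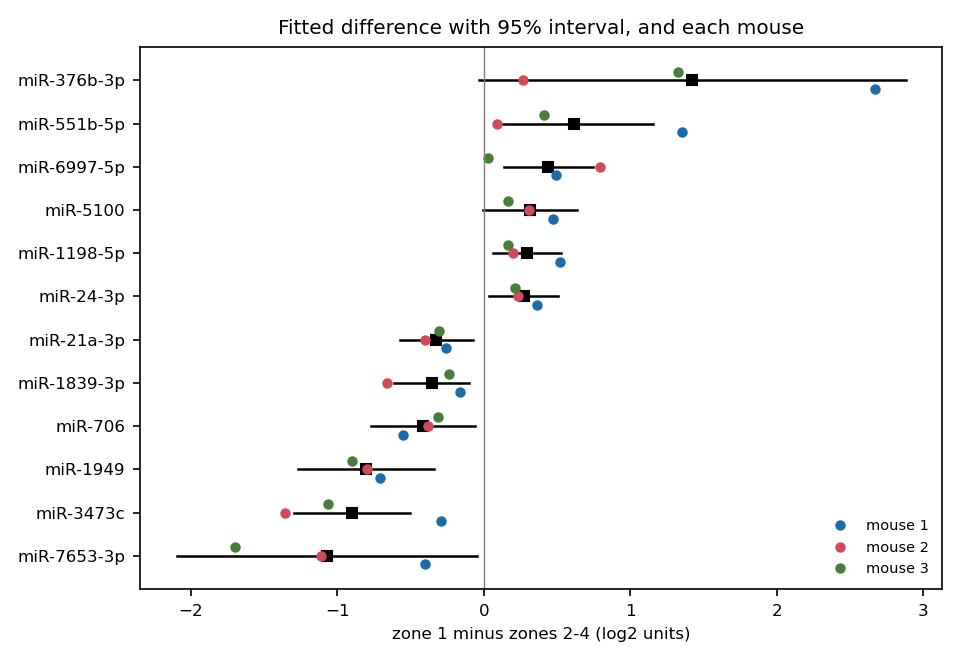
Zone 1 minus zones 2-4 in log2 units for the 12 miRNAs with the smallest p and 1 sign in all mice. Squares are fitted differences, lines their 95% intervals, and coloured points the 3 mice. miR-24-3p and miR-1949 have close points, while miR-376b-3p runs from 0.27 in mouse 2 to 2.67 in mouse 1.

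The miRNAs abundant in hepatocytes had their lowest zone 1 values in mouse 2. miR-122-5p, the most abundant miRNA of hepatocytes and a regulator of cholesterol metabolism, was at 10495, 6778 and 9292 in zone 1 of mice 1, 2 and 3. Zones 2-4 ran from 8018 to 11314 with a median of 10250. Mouse 2 was below all 9, mouse 1 above their median and mouse 3 below it, so the groups overlapped. The difference was -0.19 ± 0.15 log2 units (95% interval -0.51 to 0.14, adjusted p = 0.839, limma), with 0.09, -0.53 and -0.13 in the 3 mice.

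As a share of the summed signal, miR-122-5p had 8.89% ± 1.96 (SD, n = 3) in zone 1 and 11.0% ± 1.86 (n = 9) in zones 2-4. The difference of -2.08 percentage points had an exact permutation p of 0.0469, or 0.141 adjusted over the 3 measures per array tested, and the share was lower in 3 of 3 mice. This share was tested after the data were seen. Without mouse 2 the difference was -1.32. The summed signal also holds miR-6366, at a mean scaled signal of 35925 in zone 1 and 33023 in zones 2-4. It holds miR-3963 too, at 28839 and 25236. Both were brighter than miR-122-5p, so its share depends on these probes as well.

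Of 12 tested hepatocyte-abundant miRNAs 0 were called, 4 lay above 0 and 8 below, with a median of -0.05 beside 0.01 for all tested. In mouse 2, 11 of the 12 were below 0 with a median of -0.42, where 57.2% of all tested were below 0. In mouse 1, 1 of 12 was below 0 with a median of 0.22, and in mouse 3 the median was 0.07. Under the 4 other scalings the median ran from -0.08 to 0.37 in mouse 1, from -0.74 to -0.12 in mouse 2 and from -0.20 to 0.06 in mouse 3. That of mouse 2 alone kept its sign, and it was smallest after quantile normalization. The median of all tested ran from -0.10 to 0.18, from -0.37 to 0.00 and from -0.17 to 0.05 in mice 1, 2 and 3. In mouse 2 the list lay below it under each scaling. miR-192-5p, which is enriched in liver and gut, was at 600 in zone 1 of mouse 2 and at 1202 and 1204 in mice 1 and 3. Zones 2-4 had 690 to 1187 for miR-192-5p, and the lowest of these was zone 4 of mouse 2. miR-194-5p, with 1 copy beside miR-192 on chromosome 19 and another on chromosome 1, was at 498, 290 and 526 in zone 1 against 371 to 513. miR-22-3p, another abundant hepatic miRNA, was at 1257, 1095 and 1431 in zone 1 against 1006 to 1196, a difference of 0.17 ± 0.10.

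Families with a shared seed followed the same split by mouse. The let-7 family, which restrains growth and shares the seed GAGGUAG, had 9 tested members with 0 called, 3 above 0 and 6 below. Its median difference was 0.30 in mouse 1, -0.52 in mouse 2 and -0.03 in mouse 3, with 0 of 9 below 0 in the first, 9 in the second and 8 in the third. Of all 339 tested, 128 were below 0 in mouse 1, 194 in mouse 2 and 115 in mouse 3. let-7a-5p was at 800, 446 and 728 in zone 1 of mice 1, 2 and 3 and at 464 to 888 in zones 2-4. let-7b-5p was at 457, 280 and 420 against 341 to 507. In each, the zone 1 array of mouse 2 was below all 9 others. The members shown here differ by a few bases outside the seed.
let-7a-5p: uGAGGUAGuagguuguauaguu
let-7b-5p: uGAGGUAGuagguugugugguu
Under the 4 other scalings the let-7 median ran from 0.00 to 0.46 in mouse 1, from -0.71 to -0.25 in mouse 2 and from -0.30 to -0.04 in mouse 3. That of all tested ran from -0.10 to 0.18, from -0.37 to 0.00 and from -0.17 to 0.05.

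The miR-30 family (9 tested, 0 called) had medians of 0.20, -0.24 and 0.06 in mice 1, 2 and 3. Under the 4 other scalings these ran from -0.10 to 0.36, from -0.57 to -0.15 and from -0.21 to 0.05. The miR-17/miR-92 clusters, whose miRNAs promote proliferation, had 0.38, -0.36 and 0.10 (9 tested, 0 called), with ranges of 0.08 to 0.54, -0.68 to -0.31 and -0.17 to 0.10. Read against 0, the sign in mouse 2 was thus the same under each scaling for both, while that in mouse 3 was not, nor that of miR-30 in mouse 1. The zero point itself moved, as the median of all tested ran from -0.10 to 0.18, from -0.37 to 0.00 and from -0.17 to 0.05. In mouse 2 both lists lay below the median of all tested under each scaling.

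Of 8 tested miRNAs linked to insulin and glucose 5 lay above 0 with a median of 0.07, and 0 were called. That median was between -0.08 and -0.02 under the 4 other scalings, where that of all tested was between -0.12 and 0.01. The list median lay below that of all tested only after quantile normalization (-0.02 against 0.01). By mouse the list median was 0.39, -0.15 and 0.07, with 1, 8 and 1 of the 8 below 0. Under the other scalings mouse 1 stayed above 0, mouse 2 stayed below it (-0.48 to -0.05) and mouse 3 ran from -0.20 to 0.06. For all tested, mouse 2 ran from -0.37 to 0.00 and mouse 3 from -0.17 to 0.05. miR-103-3p and miR-107-3p, regulators of insulin sensitivity, were at 0.11 ± 0.15 and 0.12 ± 0.17 log2 units. The list for cholesterol and lipid metabolism (10 tested, 0 called) had 5 members on each side of 0 and medians of 0.24, -0.15 and 0.09 in the 3 mice. Those of mice 1 and 3 turned below 0 under some scalings, as did the medians of all tested in these mice. That of mouse 2 was -0.01 after quantile normalization, beside 0.00 for all tested.

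Wnt-linked miRNAs (4 tested, 0 called) had medians of 0.20, -0.75 and 0.26 in the 3 mice. Under the 4 other scalings these ran from -0.10 to 0.36, from -1.07 to -0.53 and from -0.01 to 0.26. Those of all tested ran from -0.10 to 0.18, from -0.37 to 0.00 and from -0.17 to 0.05. miR-34a-5p was at 36.7, 20.3 and 42.1 in zone 1 against 24.8 to 35.6 in zones 2-4. Of the hypoxia list miR-210-3p and miR-21a-5p were tested. miR-210-3p, which is induced when oxygen is low, was at 2.98 and 3.44 in zone 1 of mice 1 and 3 and undetected in mouse 2. In mouse 1 it was at 2.89 in zone 3 and undetected in zones 2 and 4, while zones 2-4 had 2.58 to 3.52 in mouse 2 and 2.82 to 5.85 in mouse 3. The differences of miR-210-3p were 0.96, -1.37 and -0.34 in mice 1, 2 and 3, with a fitted value of -0.25 ± 0.42 log2 units.

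The miR-99, let-7, miR-125 and miR-31 list (6 tested) had a median of -0.01, made up of 0.48, -0.30 and -0.01 in mice 1, 2 and 3, with 0, 6 and 3 of the 6 below 0. The signs by mouse were the same under the 4 other scalings. The Drosha-independent miRNAs (5 tested) had a median of 0.00, and 0.00, 0.09 and 0.00 by mouse. The rodent miR-466, miR-467 and miR-669 clusters (11 tested) had a median of -0.02, and 0.00, -0.22 and 0.10 by mouse. The last of these ran from -0.09 to 0.09 under the other scalings, and the Drosha-independent median of mouse 2 from -0.23 to 0.22. In all 3 lists 0 were called, and the overall median changed sign between scalings in the first and second, as did that of all tested. In the rodent clusters, miR-467a-3p was seen in mouse 2 alone, at 1.79 in zone 1 and 5.02, 10.4 and 8.68 in zones 2, 3 and 4.

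**Figure D4:**
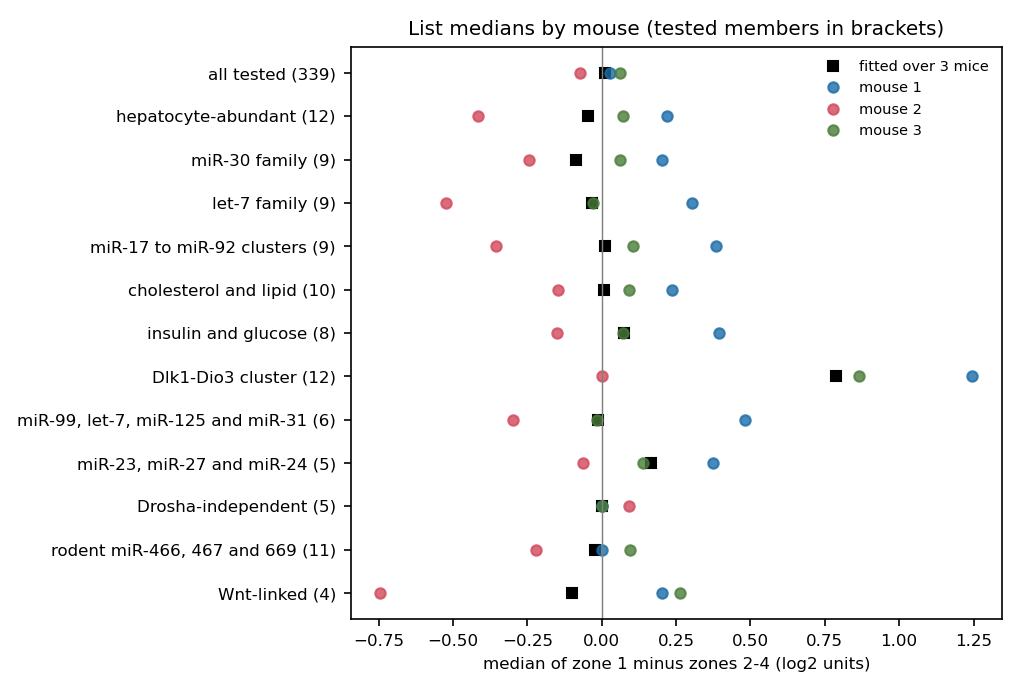
Median of zone 1 minus zones 2-4 in log2 units for each list with at least 4 tested members, over the 3 mice together (squares) and in each mouse (points). Mouse 2 lies below 0 and mouse 1 above 0 for the lists other than Dlk1-Dio3, Drosha-independent and rodent clusters, but under some other scalings mouse 1 lies below 0 for the hepatocyte-abundant (-0.08), miR-30 (-0.10), Wnt-linked (-0.10) and lipid (-0.01) lists and mouse 2 above 0 for miR-23, miR-27 and miR-24 (0.04). The median of all tested also moved under those scalings, from -0.10 to 0.18 in mouse 1 and from -0.37 to 0.00 in mouse 2. The Dlk1-Dio3 cluster has the highest median, 0.79, which rests on floored values and on members that met the detection filter only through zone 1.

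In mouse 1 the differences ran along with the base composition of the miRNAs, while in mice 2 and 3 the relation was weaker and of the other sign. Over the 286 miRNAs with a sequence, the correlation of the GC share with the difference was -0.32 in mouse 1, 0.13 in mouse 2 and 0.08 in mouse 3, given as a description across miRNAs. In mouse 1 the 58 miRNAs with a GC share under 45% had a median difference of 0.30 and the 102 with 60% or more a median of -0.10. In mouse 2 these medians were -0.25 and 0.04. The part of base composition in the family values was not tested.

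The Dlk1-Dio3 cluster, a maternally expressed run of miRNA genes that is active in the embryo and the brain, gave the highest list median. Of 37 members listed for it 14 were detected on any of the 12 arrays and 12 were tested. Of these 12, 9 lay above 0, with a median of 0.79, 1 was at an unadjusted p under 0.05 and 0 were called. By mouse the median was 1.25, 0.00 and 0.87. The median was 0.67 to 0.75 under the 4 other scalings, and it rests on the floor given to undetected values. miR-127-3p, miR-136-5p, miR-154-5p, miR-376a-3p, miR-377-3p, miR-379-5p and miR-434-3p were each detected on 2 zone 1 arrays and 2 of zones 2-4. They met the filter of 3 arrays only through zone 1, and miR-300-3p did too. The filter thus favours values above 0, and the median is no support for a difference. miR-154-3p and miR-299b-5p, which lie in the same stretch of chromosome 12, were not on the list. Each was detected on 4 of the 12 arrays and is not counted here. Of the 14 listed, 11 members were seen on some arrays and not on others.

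Of those 11, zone 1 of mouse 1 had 7 and zones 2, 3 and 4 of mouse 1 had 0. Mouse 2 had 2, 1, 1 and 2 in zones 1 to 4, and mouse 3 had 10, 11, 8 and 0. Zone 1 thus stood apart from its neighbours in mouse 1, while in mouse 3 zones 1, 2 and 3 were alike and zone 4 had none of the 11. The zone 1 array of mouse 1 also had the highest summed signal of its zones 1 to 4, 94368 against 65807 to 70723. In mouse 3, zone 4 had 113234 and zone 1 had 101278. The part of array brightness was not tested. In zones 5 to 8, 2 of the 11 were detected on any array.

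miR-376b-3p was at 7.15, 25.4 and 13.1 in zone 1 of mice 1, 2 and 3. In mouse 1 it was not detected in zones 2 to 4, in mouse 2 it was at 16.4, 20.1 and 28.1, and in mouse 3 at 13.1, 9.68 and undetected. The fitted difference of miR-376b-3p was 1.42 ± 0.66 log2 units (95% interval -0.03 to 2.88, adjusted p = 0.681, limma). miR-136-5p was at 3.03 and 5.18 in zone 1 of mice 1 and 3, and at 3.86 and 3.37 in zones 2 and 3 of mouse 3. Its difference was 0.84 ± 0.35 (adjusted p = 0.681), and it was undetected on the 8 remaining arrays. miR-127-3p, chosen after its values were seen, was at 4.84 and 12.04 in zone 1 of mice 1 and 3 and at 10.7 and 8.11 in zones 2 and 3 of mouse 3. Of the listed members miR-494-3p, miR-370-3p and miR-487b-3p were detected on all 12 arrays.

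**Figure D5:**
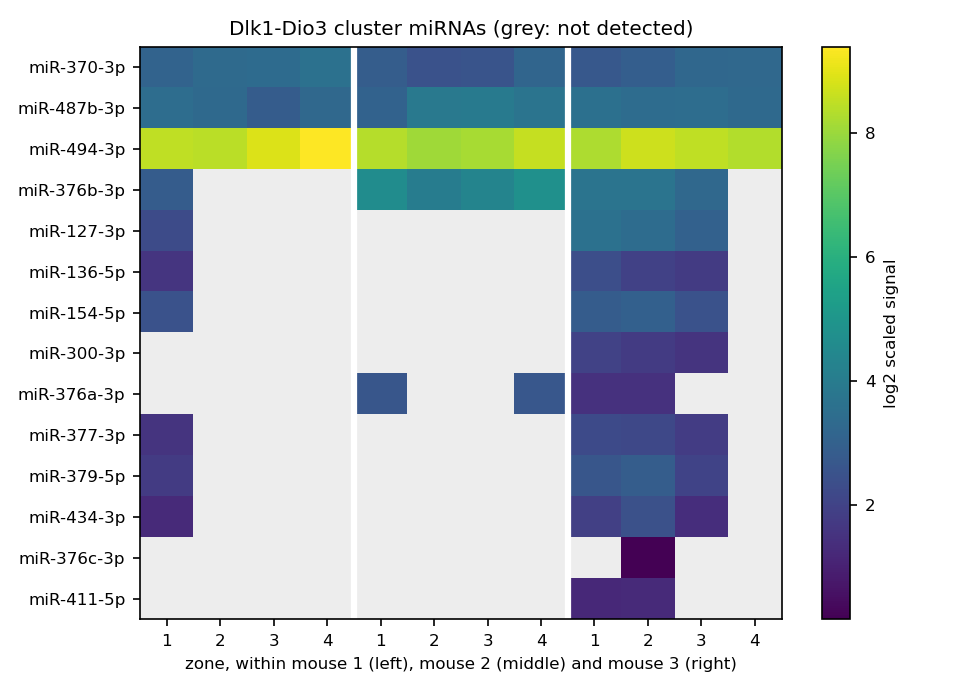
Log2 scaled signal (colour) of 14 listed Dlk1-Dio3 cluster miRNAs on the 12 arrays of zones 1 to 4, by mouse, with undetected values in grey. Of 11 partly detected members, 7 appear in zone 1 of mouse 1 and 0 in its zones 2 to 4.

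The 16 miRNAs seen in zone 1 of mouse 1 and not in its zones 2 to 4 also included some outside that cluster. Chosen after their values were seen, miR-497a-5p and miR-195a-5p, which lie in 1 cluster and share the seed AGCAGCA, were at 2.94 and 4.99 there. In mouse 3 zone 1 they were at 3.49 and 6.52. There miR-497a-5p was at 3.21 and 2.48 in zones 2 and 3 and undetected in zone 4, and miR-195a-5p was at 5.19, 4.71 and 3.14 in zones 2, 3 and 4. All 16 were detected on some array of zones 1 to 4 of the other mice, and 4 were detected in zones 5 to 8 of mouse 1. Zone 4 of mouse 1 likewise had 13 miRNAs that its zones 1 to 3 lacked. Among the 29 that zone 1 of mouse 2 lacked were miR-148b-3p, miR-1839-5p, miR-6923-3p and miR-7047-3p, also chosen after their values were seen. miR-148b-3p was at 3.92 and 3.21 in zone 1 of mice 1 and 3 and at 2.64 to 4.67 in zones 2-4, and its differences by mouse were 0.01, -1.70 and -0.34 log2 units.

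Markers of other liver cells were almost all undetected. Of 6 leukocyte, 5 stellate, 5 biliary and 3 erythroid marker miRNAs 0 were detected on any of the 12 arrays. Of 3 endothelial markers miR-126a-3p was detected, at 6.74 in zone 1 of mouse 1 and at 4.08, 10.6 and 11.0 in its zones 2, 3 and 4. In mouse 2 it was not detected in zone 1 and at 2.47 to 2.77 in zones 2-4, and mouse 3 had it in none, for a difference of -0.48 ± 0.30 log2 units (adjusted p = 0.795, limma). The summed signal of 4 hepatocyte markers, miR-122-5p among them, ran from 7714 to 12254 in zone 1 and from 9117 to 12990 in zones 2-4. Fewer cells of a type and less RNA per cell cannot be told apart in such sums.

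Zone 1 against zone 2 alone, the nearest step, gave 0 higher and 0 lower (0% each; 4 and 6 at an unadjusted p under 0.05, or 1.18% and 1.77%, together 2.95%, limma). The lowest adjusted p was 0.830. Within zones 2-4 the slope over zones gave 0 rising and 0 falling (0%), with 52 (15.3%) rising and 13 (3.83%) falling at an unadjusted p under 0.05, together 19.2%, and a lowest adjusted p of 0.181 (limma). miR-30c-1-3p, with a slope of 0.27 ± 0.07 per zone, was at 1.61, 1.65 and 1.12 in zone 2 and 2.39, 2.61 and 1.49 in zone 4, while its zone 1 differed from zone 2 by -0.01 ± 0.14.

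Zone 5 holds column 1 of the second slide row, as zone 1 does of the first, and was set against zones 6 to 8 in the same way. There 2 of 351 miRNAs were higher (0.57%) and 5 lower (1.42%, together 1.99%, limma), with 10.5% and 5.98% (together 16.5%) at an unadjusted p under 0.05. The difference between the contrasts was tested for another set of 339 miRNAs, those detected on at least 6 of 24 arrays, of which 322 were also tested for zone 1. Past the threshold it was above 0 for 4 (1.18%) and below 0 for 1 (0.295%), together 1.47% (limma). At an unadjusted p under 0.05 it was 4.72% and 3.83%, together 8.55%. The 4 were miR-149-5p (1.25), miR-802-5p (0.72), miR-137-3p (1.69) and miR-31-5p (0.92 log2 units). None of them was detected in zones 1 to 4, so the zone 5 side alone sets these values. Arrays held at the floor also lower the residual spread of the fit, so these 4 calls do not test zone 1. The 1 was miR-709, at -0.60 ± 0.14 (adjusted p = 0.0241, limma). miR-709 was at 148, 177 and 113 in zone 1 and 91.7 to 206 in zones 2-4, a zone 1 difference of -0.02 ± 0.12, and its zone 5 difference was 0.58. For miR-1949 the contrasts differed by -0.99 ± 0.25 (adjusted p = 0.0532, limma), with a zone 5 difference of 0.19 ± 0.13. Its zone 5 values of 9.87, 10.6 and 10.8 lay within the 6.78 to 13.0 of zones 6 to 8.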

How the data were processed

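The deposited files hold, for each miRNA and array, a summarised intensity on a linear scale and a detection call, per the file headers. They come from Agilent Feature Extraction according to the submitters' processing notes, and the version is not given in the sources used here. Undetected miRNAs hold an intensity of 0.1. No columns of other samples were present. Only the summarised signal was used, so no other background correction was run.

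Control sequences (21) were set aside. Each array was scaled to its 75th percentile, taken over 198 miRNAs that no array of the 24 lacked. Values under 1.12, the median of the arrays' lowest detected signals, were raised to it before taking log2. The floor can understate differences of dim miRNAs. It can also overstate them where detected signals lie well above it, as for miR-376b-3p, whose lowest detected signal was 7.07. A miRNA was tested if 3 or more of the 12 arrays detected it (339 miRNAs), or 6 of 24 for the difference between contrasts. Fits used limma 3.58.1 (lmFit, eBayes) in R 4.3.3. The mouse was a block and tests were two-sided, with Benjamini-Hochberg adjustment over all tested and a threshold of 0.05. Per-array measures were tested by exact permutation within mice. The fit was tested on simulated data. Arrays are paired because the zones of a number came from 1 animal, and their deviations from zone means correlated with a median of 0.70 (lowest 0.34 over 18 pairs). The 3 mice limit the precision.

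The miRNAs named are the 6 per direction with the smallest p and 1 sign in all mice, those detected in 1 group, up to 4 per list, the brightest, and up to 5 called in the other comparisons. Members and lists were chosen with earlier results of these data known. Figures used matplotlib 3.10.9. Alternatives covered scaling, the filter, the floor, moderation, the block, the zones and arrays in the fit, and each mouse left out.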

Additional observations from a re-analysis of the deposited data

Results flagged for a closer look

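In zones 2-4, 5 of 54 sets of values tested, which were named miRNAs and per-array measures, had 1 array far from the other 8, where chance gives about 1 in 20. All 5 were miRNAs. The log2 signal of the distant array was 4.62 for let-7i-5p, 5.00 for miR-20a-5p, 7.43 for miR-148a-3p, 9.43 for miR-192-5p and 3.60 for miR-466i-3p. The first 4 are the array of mouse 2, zone 4, and the last is that of mouse 1, zone 4. Zone 4 of mouse 2 had 19 miRNAs that the 3 other arrays of its zones 1 to 4 lacked.

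The zone 1 and zone 5 contrasts differed past the threshold (limma) for miR-149-5p by 1.25 log2 units, miR-802-5p by 0.72, miR-137-3p by 1.69, miR-31-5p by 0.92 and miR-709 by -0.60. The first 4 were not detected in zones 1 to 4, where every array was held at the floor. Their differences are the zone 5 contrasts with the sign changed. Arrays held at the floor also lower the residual spread on which the p rests. The calls for these 4 therefore cannot show whether zone 1 differs from its neighbours.

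Control sequences, which entered no test, were detected on part of the 12 arrays. dmr_285, dmr_3, dmr_31a and dmr_6 were each detected on 8, namely all of mice 1 and 2 and none of mouse 3, and miRNABrightCorner30 on 11. Of the controls, 5 were detected on all 12 arrays, and their mean difference of zone 1 from zones 2-4 ran from -0.30 to 0.02 log2 units. Of these, hur_2 was at -0.23, -0.35 and -0.32 and mr_1 at -0.18, -0.12 and -0.17 in mice 1, 2 and 3, below 0 in each.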

How the results depend on the processing

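Of 21 alternatives for zone 1 against zones 2-4, 15 gave 0 calls and 6 gave 1 lower miRNA. The latter were scaling over the miRNAs detected on all 12 arrays (1, miR-3473c), zone as a 4-level factor (1), all 24 arrays (1) and without zone 2 (1, miR-1949 in these last 3), while leaving out each mouse gave 0 to 1, as did leaving out single zone 1 arrays (1 without that of mouse 1, miR-3473c). Without the replicate block 0 were called in either direction, and 0 with 1 difference per mouse. The median difference was 0.01, and it was -0.12 without scaling, -0.09 after scaling to the summed signal, -0.12 over the 12-array set and 0.01 after quantile normalization. miR-1949 stayed below 0 from -1.01 to -0.69 and miR-24-3p above 0 from 0.12 to 0.32. Of 1587 values of named miRNAs under alternatives 102 had another sign, and 6 passed the threshold. Leaving out each mouse moved the difference in detected miRNAs from -25.7 to 9.67, in log2 summed signal from -0.27 to 0.10 and in the miR-122-5p share from -2.70 to -1.32 points, where 2 mice cannot give an exact permutation p under 0.0625.

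Zone 5 against zones 6 to 8 had 0 higher and 1 lower without scaling, 0 and 0 after the summed signal, 0 and 2 over the 12-array set, 1 and 2 with the lower floor, and 0 and 0 without the replicate block. It had 5 higher when detected on all arrays, 2 lower when detected on at least 1, and 4 higher with trend and robust moderation. Leaving out each mouse gave 0 to 3 higher and 0 to 4 lower. The difference between contrasts had 1 above and 0 below 0 without scaling, 0 below after the summed signal and after quantile normalization, 3 below over the 12-array set, 0 above when detected on all arrays, and 1 above and 0 below without the replicate block. Leaving out each mouse gave 0 to 3 above and 0 to 1 below. The causes were not tested. Signals near the floor limit what can be seen for dim miRNAs.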
